A study of Homo sapiens with 42 samples.

Results

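A set of 7 genes for receptors of blood cell growth factors and cytokines were followed in K562 cells: the receptor tyrosine kinase KIT and the cytokine receptor chains EPOR, IL2RG, CSF2RB, IL10RA, IL6ST and IL6R. They were taken by symbol, which gave 7 of the 58243 gene IDs in both count files. The symbols were chosen with earlier results of these data known. K562 cells are a leukaemia line whose growth is driven by the BCR-ABL1 kinase. Cultures were left untreated (CTRL) or received 1 µM imatinib (IM), which inhibits BCR-ABL1, 5 µM JTE-607 (JTE), which acts on the nuclease that cuts transcripts at their 3′ ends, or 110 mM KCl, which causes hyperosmotic stress. Poly(A) mRNA of whole cells was read in 9 groups, which were CTRL, IM 1h, IM 6h, IM 18h, JTE 1h, JTE 6h, JTE 18h, KCl 1h and KCl 3h. Nuclear RNA depleted of ribosomal RNA was read in 5 groups, which were CTRL, IM 1h, IM 18h, JTE 1h and KCl 1h. Each group had 3 biological replicates of this single line, 42 libraries in all, and every comparison with CTRL within a fraction used the same 3 CTRL libraries. BCR-ABL1 is thus present in every group, CTRL included.

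Cytokine receptors of this family have no kinase domain of their own. When the ligand brings receptor chains together, JAK kinases bound to the chains phosphorylate STAT transcription factors, which then enter the nucleus. KIT works differently, since it is itself a tyrosine kinase, and imatinib is known to inhibit KIT as well as BCR-ABL1. In the red cell lineage, which K562 cells resemble, KIT acts in early progenitors and EPOR in the later ones.

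The mRNA libraries held between 16439848 and 62953314 counts (median 19068166), with replicates 2 and 3 of KCl 1h far above the others, and the nuclear libraries between 16175394 and 25103205. The summed level of 10 erythroid markers was 4377 to 5736 CPM (counts scaled to library size) in the mRNA CTRL libraries. It was 12035 to 16859 CPM in IM 18h, and in nuclear RNA it went from 5106 to 6887 CPM in CTRL to 12832 to 15852 CPM in IM 18h. Of the markers of other cells, TPSAB1 of mast cells was at 0 counts in all 42 libraries, and CPA3 in all 27 mRNA libraries. MS4A2, the other mast cell marker, held 1 to 52 counts in the mRNA libraries. The 3 mast cell markers summed to 0.157 to 0.780 CPM in mRNA CTRL and to 0.0543 to 0.526 CPM in IM 18h. The 3 T cell markers summed to 2.36 to 3.34 CPM in mRNA CTRL and to 0.158 to 0.326 CPM in IM 18h, and CD3D alone accounted for 2.30 to 3.34 CPM in CTRL while CD2 was at 0 in 21 of 27 mRNA libraries. The 3 markers each of B cells (2.53 to 2.73 against 1.30 to 2.26 CPM), monocytes (5.87 to 11.02 against 3.15 to 7.48 CPM) and fibroblasts (3.85 to 8.91 against 2.37 to 4.07 CPM) gave these sums in mRNA CTRL and IM 18h, each first for CTRL. In nuclear RNA the sums in CTRL and IM 18h were 2.53 to 5.68 and 0.408 to 0.702 CPM for T cells, 11.1 to 18.2 and 4.16 to 6.55 CPM for fibroblasts, 3.32 to 3.89 and 1.39 to 2.93 CPM for B cells, and 5.35 to 6.52 and 3.31 to 5.16 CPM for monocytes, all lower in IM 18h without overlap, alongside the nuclear falls of IL10RA and IL2RG given below. The part of any of these markers in the values below was not tested. In bulk RNA, fewer cells with a transcript and less of it in each cell cannot be told apart.

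Receptor levels are given as CPM after TMM normalisation, with the SD over 3 libraries. A gene was called when edgeR's quasi-likelihood test gave a Benjamini-Hochberg adjusted p below 0.05 over all genes tested and its log2 fold change was beyond 0.6 in either direction. KIT, EPOR, IL2RG, IL10RA and IL6ST passed the filter on low counts and were tested. CSF2RB and IL6R did not pass in either fraction, so 5 of the 7 genes have tests. Whether the libraries of 2 groups overlapped is given as a description and is not a test. The share of all genes without overlap was not worked out. Groups compared with CTRL also share its libraries, so a lack of overlap does not stand in for a call.

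EPOR and IL10RA showed the widest movement and are shown first with the DNA before their start sites. The 250 bases upstream of each RefSeq start (GRCh38.p14) are printed 5′ to 3′ on the gene's strand, with capitals for the motif AGATAA, which GATA factors bind, read on either strand. The EPOR stretch is chr19:11384315-11384564 on the minus strand. The IL10RA stretch is chr11:117989695-117989944 on the plus strand, and this RefSeq start lies 3597 bases inside the gene span of the count files.
EPOR: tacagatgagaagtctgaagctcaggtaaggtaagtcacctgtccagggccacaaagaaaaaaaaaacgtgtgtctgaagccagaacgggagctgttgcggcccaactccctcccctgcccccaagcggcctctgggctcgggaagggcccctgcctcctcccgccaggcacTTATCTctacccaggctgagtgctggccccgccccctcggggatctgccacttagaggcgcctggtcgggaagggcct
IL10RA: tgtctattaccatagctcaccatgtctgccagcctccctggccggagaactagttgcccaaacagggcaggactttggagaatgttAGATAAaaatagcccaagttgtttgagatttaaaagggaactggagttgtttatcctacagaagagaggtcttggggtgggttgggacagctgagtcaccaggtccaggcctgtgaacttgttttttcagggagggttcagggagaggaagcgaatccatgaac
The motif was present in the 300-base windows (250 before to 50 after the start) of 2 of the 6 genes with a RefSeq entry, EPOR on the opposite strand (TTATCT) and IL10RA on the gene's strand, against 10.3% of 35116 promoter windows. The STAT motif TTCNNNGAA was in 0 of the 6 windows and in 7.66% of all windows. A match of letters is a description of the window only, and no match says nothing about a factor. KIT, IL2RG, IL6ST and IL6R were searched in the same way, and CSF2RB was not. The RefSeq start of IL2RG lies 531 bases inside its gene span. For IL10RA and IL2RG the DNA before the gene span was therefore not searched.

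In untreated cells the genes ranked, per kilobase of exon, from IL2RG down to CSF2RB. In mRNA, IL2RG stood at 8.39 ± 2.47 RPKM (SD, n = 3) and EPOR at 6.12 ± 1.18 RPKM, and their libraries overlapped. IL6ST followed at 3.11 ± 0.133 RPKM, IL10RA at 1.22 ± 0.251 RPKM and KIT at 0.389 ± 0.306 RPKM, each apart from its neighbours. IL6R at 0.0643 ± 0.0197 RPKM and CSF2RB at 0.0512 ± 0.0341 RPKM came last and overlapped. In nuclear RNA the order was the same, from IL2RG at 9.30 ± 1.30 RPKM to CSF2RB at 0.0308 RPKM. There IL6ST (2.29 RPKM) and IL10RA (2.08 RPKM) overlapped too, as did IL2RG and EPOR. After 18 h of imatinib EPOR was first, at 19.2 ± 1.45 RPKM in mRNA and 29.4 ± 4.29 RPKM in nuclear RNA, while IL10RA had moved to 0.0620 RPKM in mRNA, where it overlapped IL6R.

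**Figure D1:**
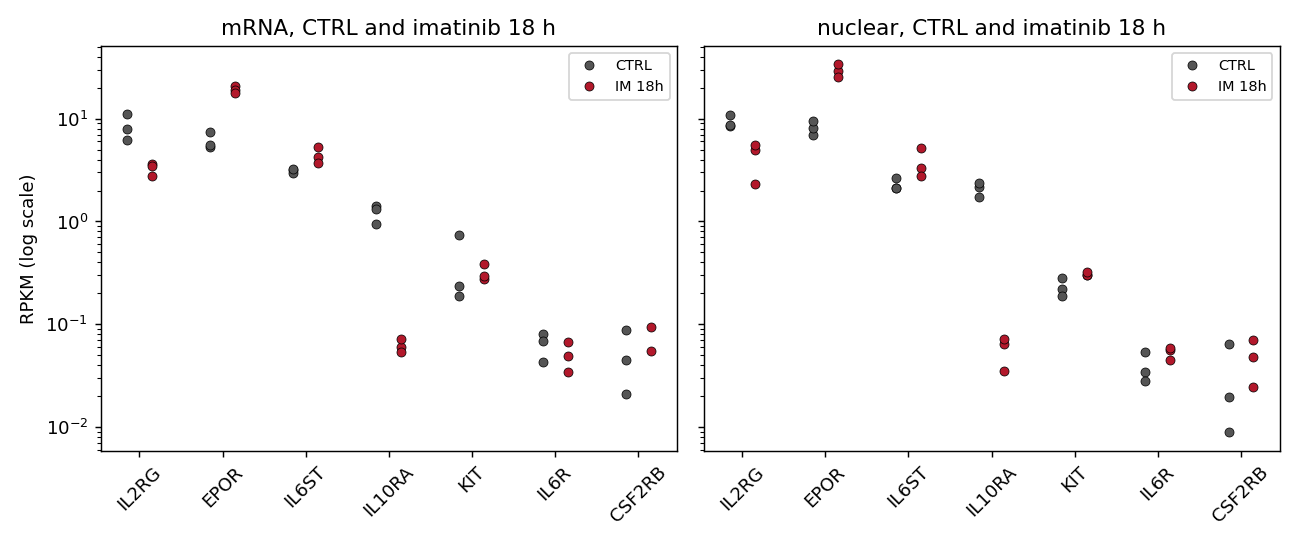
Exon-length normalised level (RPKM, log axis) of the 7 receptor genes in CTRL and imatinib 18 h libraries, with 1 point per library, mRNA on the left and nuclear RNA on the right. EPOR stands higher and IL10RA lower in the imatinib 18 h libraries than in CTRL in both fractions, and libraries at 0 are not drawn.

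EPOR, on chromosome 19 (hg38, 11377205 to 11384342, minus strand, ENSG00000187266), is the receptor for erythropoietin, which signals through JAK2 and STAT5. Its mRNA rose with imatinib, to about 3.14 times the CTRL level at 18 h, and fell at 6 h of JTE. The 3 CTRL libraries stood at 16.4, 17.1 and 23.0 CPM, and the IM 6h libraries at 28.4, 34.6 and 50.7 CPM. In IM 18h they were 63.8, 58.9 and 54.9 CPM. All 6 libraries of the later imatinib times lay above all CTRL libraries, and each IM 18h library lay above each IM 6h library.
In log2 units, EPOR rose by 1.01 in IM 6h (SE 0.21, edgeR adjusted p = 0.00168), where 9.94% of the 18095 genes were called. It rose by 1.65 in IM 18h (SE 0.21, edgeR adjusted p = 1.45e-06), where 30.5% of genes were called. In IM 1h, with libraries at 16.4, 19.1 and 25.1 CPM, the log2 value was 0.10, and 0.0166% of genes were called.
The step from IM 1h to IM 6h was 0.90 (SE 0.21, edgeR adjusted p = 0.00459), in a comparison that called 8.2% of genes. Without IM 6h replicate 3 it was 0.63 with an edgeR adjusted p = 0.0592 and was not called. The step from IM 6h to IM 18h was 0.65 (SE 0.20, edgeR adjusted p = 0.0487), in a comparison that called 4.41% of genes, and it was not called when any of the 6 libraries other than IM 6h replicate 3 was left out (0.47 to 0.69).

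The JTE libraries moved the other way. The JTE 6h libraries stood at 7.31, 9.56 and 7.76 CPM, all below CTRL, and the JTE 18h libraries at 14.8, 18.6 and 14.8 CPM overlapped CTRL. EPOR fell by 1.20 in JTE 6h (SE 0.22, edgeR adjusted p = 0.000285), in a comparison that called 13.2% of genes. It was 0.97 higher in JTE 18h than in JTE 6h (SE 0.22, edgeR adjusted p = 0.00267), with 13.4% of genes called, and against CTRL the JTE 18h value was -0.23 (SE 0.21, edgeR adjusted p = 0.572). Set against JTE at the same time, the imatinib libraries were higher by 2.20 at 6 h (SE 0.22, edgeR adjusted p = 9.33e-08, 23.8% of genes called). At 18 h they were higher by 1.88 (SE 0.21, edgeR adjusted p = 2.95e-07, 30.3% of genes called).
In nuclear RNA the CTRL libraries held 21.3, 25.2 and 29.1 CPM of EPOR and the IM 18h libraries 90.1, 77.3 and 104.0 CPM, with no overlap. The rise was 1.84 (SE 0.17, edgeR adjusted p = 4.81e-08), where 32.6% of 21929 genes were called. IM 18h stood 1.89 above IM 1h (SE 0.17, edgeR adjusted p = 4.03e-08, 31.3% of genes called). The nuclear and mRNA changes at 18 h differed by 0.25, and this difference was not called (SE 0.21, edgeR adjusted p = 1.00, 0.0901% of genes called).
In nuclear JTE 1h EPOR stood at 16.7, 19.0 and 23.5 CPM, which overlapped CTRL, and the value was -0.35 (SE 0.17, edgeR adjusted p = 0.221). The exons of EPOR meet the end of RGL3 on the same strand over 2 bases, and RGL3 held 3 counts over the mRNA CTRL libraries and 6 over IM 18h.

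**Figure D2:**
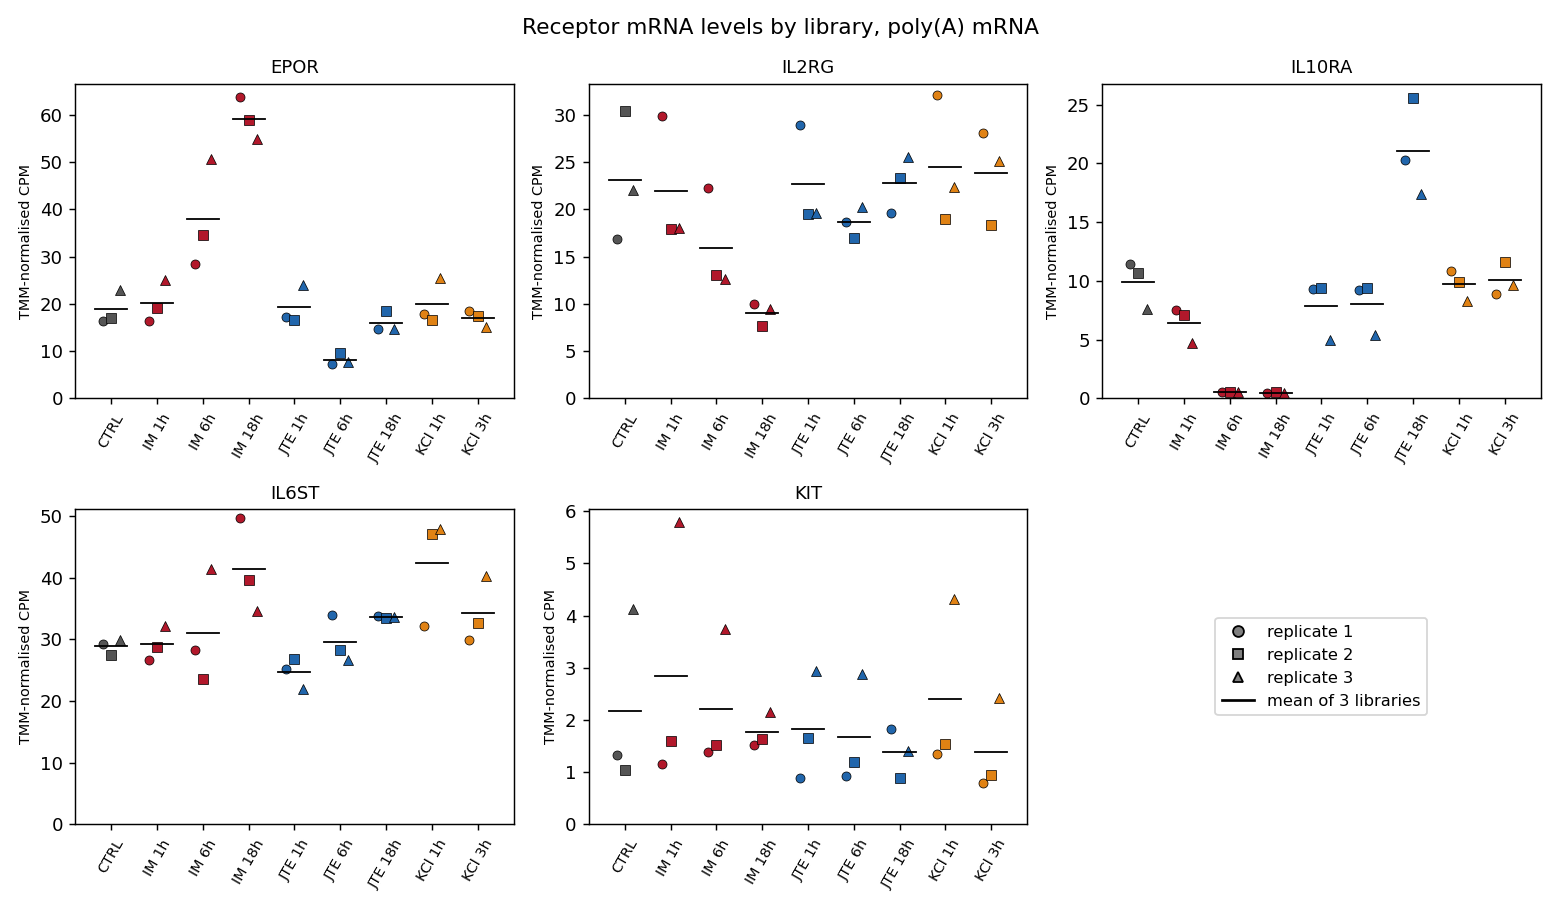
TMM-normalised CPM of 5 receptor genes in the 9 mRNA groups, with 1 symbol per library (shape gives the replicate) and a line at the mean of 3 libraries. EPOR runs up to 63.8 CPM in IM 18h, IL10RA stays below 0.6 CPM in IM 6h and IM 18h, and KIT is highest in replicate 3 in 8 of 9 groups.

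IL10RA, on chromosome 11 (hg38, 117986348 to 118003037, plus strand, ENSG00000110324), is the chain that binds IL-10, and it signals with IL10RB through JAK1, TYK2 and STAT3. Its mRNA was near the floor of these libraries from 6 h of imatinib onward and rose at 18 h of JTE. The CTRL libraries stood at 11.4, 10.7 and 7.58 CPM (207, 204 and 136 counts). In IM 6h they stood at 0.560, 0.557 and 0.550 CPM (13, 11 and 10 counts). In IM 18h they stood at 0.489, 0.579 and 0.440 CPM (9, 11 and 8 counts).
All 6 imatinib libraries were far below all CTRL libraries, with a spread among themselves that was small beside the gap. IL10RA fell by 4.14 in IM 6h (SE 0.31, edgeR adjusted p = 2.23e-08) and by 4.28 in IM 18h (SE 0.32, edgeR adjusted p = 1.63e-09). The means were 17.8-fold and 19.7-fold lower than CTRL. Between IM 6h and IM 18h the value was -0.14 (SE 0.41, edgeR adjusted p = 0.876), so the 2 times were not separated.
At 1 h of imatinib the libraries stood at 7.53, 7.08 and 4.68 CPM, all below the lowest CTRL library (7.58 CPM). The log2 value was -0.62 (SE 0.24, edgeR adjusted p = 1.00), so it was not called. With a replicate block in which mRNA CTRL 1 and 2 are exchanged, chosen after the data were seen, it was -0.63 (SE 0.15, edgeR adjusted p = 0.514), also no call, where 0.0276% of genes were called. The step from IM 1h to IM 6h was -3.52 (SE 0.31, edgeR adjusted p = 3.83e-07).

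In JTE 18h the libraries stood at 20.3, 25.5 and 17.4 CPM, above all CTRL libraries. IL10RA rose by 1.09 (SE 0.23, edgeR adjusted p = 0.00394), in a comparison that called 5.39% of genes, and it stood 1.40 above JTE 6h (SE 0.24, edgeR adjusted p = 0.000176). The JTE 1h and JTE 6h libraries overlapped CTRL, with log2 values of -0.33 and -0.31. Imatinib and JTE therefore lay on opposite sides of CTRL at 18 h, and the log2 value of IM 18h against JTE 18h was -5.37 (SE 0.32, edgeR adjusted p = 3.3e-11). The KCl libraries, at 10.9, 9.94 and 8.28 CPM for 1 h and 8.86, 11.6 and 9.65 CPM for 3 h, overlapped CTRL.

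In nuclear RNA IL10RA was at 14.1, 17.6 and 19.0 CPM in CTRL and at 0.286, 0.526 and 0.585 CPM in IM 18h (7, 11 and 10 counts). These libraries did not overlap. IL10RA fell by 5.21 (SE 0.24, edgeR adjusted p = 9.36e-12), with a mean 36.3-fold lower. At 1 h of imatinib the nuclear libraries stood at 9.26, 10.3 and 9.56 CPM, also below every CTRL library.
The 1 h log2 value was -0.80 (SE 0.16, edgeR adjusted p = 0.0817), not called, in a comparison where 0.0456% of genes were called. With a block for the replicate number (the numbers pair these nuclear libraries) it was -0.80 with SE 0.11 and edgeR adjusted p = 0.000115, so it was called together with 0.315% of genes. Nuclear IM 18h against IM 1h gave -4.41 (SE 0.24, edgeR adjusted p = 1.18e-10).
In nuclear JTE 1h the libraries stood at 10.7, 13.3 and 10.6 CPM, below every CTRL library. The log2 value was -0.55 (SE 0.16, edgeR adjusted p = 0.0288), short of the fold threshold, where 8.52% of genes were called, and without CTRL replicate 1 or JTE 1h replicate 2 it was -0.67, which is a call. The nuclear minus the mRNA change at 18 h of imatinib was -0.87, and this difference was not called (SE 0.43, edgeR adjusted p = 1.00).

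**Figure D3:**
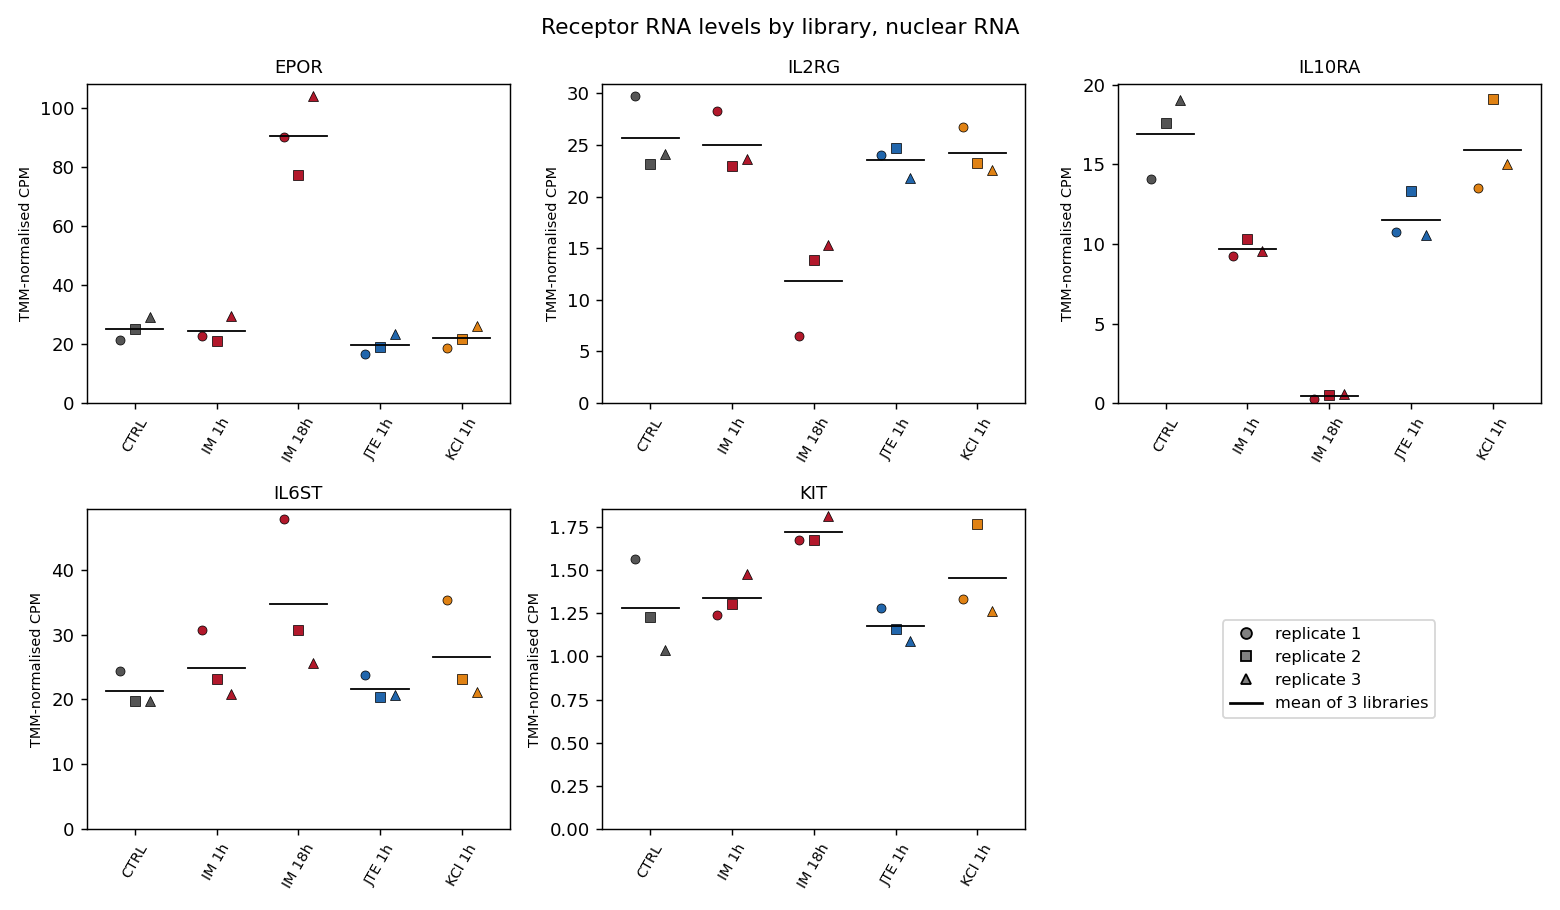
TMM-normalised CPM of the 5 tested receptor genes in the 5 nuclear groups, with 1 symbol per library (shape gives the replicate) and a line at the mean of 3 libraries. In IM 18h EPOR is above 77 CPM in every library and IL10RA is below 0.6 CPM in every library.

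IL2RG, on chromosome X (hg38, 71107404 to 71112108, minus strand, ENSG00000147168), is the common gamma chain that receptors for IL-2, IL-4, IL-7, IL-9, IL-15 and IL-21 share, and it binds JAK3. Its mRNA fell at 18 h of imatinib and was not called in any other mRNA comparison with CTRL. The CTRL libraries stood at 16.9, 30.4 and 22.1 CPM. In IM 6h they were 22.3, 13.0 and 12.6 CPM, which overlapped CTRL. In IM 18h they were 9.99, 7.69 and 9.46 CPM, all below CTRL.
IL2RG fell by 1.36 in IM 18h (SE 0.26, edgeR adjusted p = 0.000255), a mean 2.56-fold lower. In IM 6h the value was -0.53 (SE 0.26, edgeR adjusted p = 0.166), and without IM 6h replicate 1 it was -0.88 with an edgeR adjusted p = 0.0316, which is a call. Between IM 6h and IM 18h it was -0.82 (SE 0.26, edgeR adjusted p = 0.0538).
The nuclear libraries were 29.8, 23.1 and 24.1 CPM in CTRL and 6.45, 13.8 and 15.3 CPM in IM 18h, with no overlap. IL2RG fell there by 1.13 (SE 0.22, edgeR adjusted p = 0.000453) and the value against IM 1h was -1.09 (SE 0.22, edgeR adjusted p = 0.000646). At 18 h IM against JTE in mRNA gave -1.33 (SE 0.26, edgeR adjusted p = 0.0003). In JTE and KCl the mRNA libraries ran from 17.0 to 32.1 CPM and overlapped CTRL at every time.

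IL6ST, on chromosome 5 (hg38, 55935095 to 55994993, minus strand, ENSG00000134352), is the shared signalling chain of the IL-6 family of cytokines, which includes LIF and oncostatin M. Its libraries stood above CTRL in both fractions at 18 h of imatinib, and the difference was called in nuclear RNA and not in mRNA. The fractions were not separated by the direct test. The nuclear minus the mRNA change was 0.25, not called, and -0.07 without nuclear IM 18h replicate 1. The mRNA CTRL libraries stood at 29.3, 27.5 and 29.9 CPM and the IM 18h libraries at 49.7, 39.7 and 34.7 CPM, without overlap. The value was 0.52 (SE 0.18, edgeR adjusted p = 0.0209), short of the fold threshold of 0.6, and without IM 18h replicate 3 it was 0.62, which is a call. The nuclear CTRL libraries were 24.4, 19.8 and 19.8 CPM and the IM 18h libraries 47.9, 30.7 and 25.6 CPM.
IL6ST rose by 0.71 in nuclear RNA (SE 0.23, edgeR adjusted p = 0.0191), and without IM 18h replicate 1 the value was 0.40 with an edgeR adjusted p = 0.133, which is no call. Replicate 1 was the highest library of IL6ST in all 5 nuclear groups.
With KCl for 1 h the mRNA libraries stood at 32.2, 47.2 and 47.9 CPM, all above CTRL. The value was 0.56 (SE 0.18, edgeR adjusted p = 0.0618), not called, in a comparison that called 5.45% of genes. Without KCl 1h replicate 1 it was 0.71 with an edgeR adjusted p = 0.0132, which is a call, and the other 2 libraries are the deepest of the series. At KCl 3h they were 29.9, 32.6 and 40.3 CPM, with a value of 0.25. The mRNA CTRL libraries lay close together, at 27.5 to 29.9 CPM, so small differences were enough to separate groups from them. The JTE 18h libraries, at 33.7, 33.4 and 33.6 CPM, also lay above CTRL, and the value was 0.22 (SE 0.18, edgeR adjusted p = 0.518), not called. The JTE 1h libraries, at 25.3, 26.8 and 21.9 CPM, lay below CTRL, and the value was -0.23 (SE 0.18), not called.
An antisense gene, ENSG00000262211, shares 797 bases (8.58%) of the IL6ST exons, and pairs that fall on both genes were left out. That gene held 0 counts in all groups. Pairs on the shared bases were counted for neither gene, so the 0 does not show whether the antisense gene was transcribed.

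KIT, on chromosome 4 (hg38, 54657918 to 54740715, plus strand, ENSG00000157404), is the receptor for stem cell factor. It was low in K562 cells and not called in any of the 23 comparisons. Its mRNA stood at 1.32, 1.05 and 4.13 CPM in CTRL (24, 20 and 74 counts) and at 1.52, 1.63 and 2.15 CPM in IM 18h. The groups overlapped, and replicate 3 was the highest library in 8 of 9 mRNA groups, but in 2 of 5 nuclear groups.
The mRNA value at 18 h of imatinib was -0.29 (SE 0.67, edgeR adjusted p = 0.757), and without CTRL replicate 3 it was 0.54. The lowest and highest mRNA values against CTRL were -0.64, in JTE 18h and in KCl 3h, and 0.41 in IM 1h, and without CTRL replicate 3 the first pair became 0.21 and 0.20. In nuclear RNA the CTRL libraries were 1.56, 1.23 and 1.04 CPM and the IM 18h libraries 1.67, 1.67 and 1.81 CPM, which lay above all of them, and the value was 0.42 (SE 0.23, edgeR adjusted p = 0.140).
Of the 20 introns of KIT, 2 are longer than the 10000 bases that the alignment allowed, so pairs across them are missing from its counts. The same holds for 1 of 18 introns of IL6ST and 2 of 11 of IL6R.

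CSF2RB (chromosome 22, 36913628 to 36940449, plus strand, ENSG00000100368) is the beta chain of the receptors for IL-3, IL-5 and GM-CSF. Its counts were 0 to 13 in the mRNA libraries and 1 to 14 in the nuclear ones, at most 0.660 and 0.677 CPM. IL6R (chromosome 1, 154405193 to 154469450, plus strand, ENSG00000160712) binds IL-6 and hands it to IL6ST. Its counts were 0 to 13 and 2 to 9, at most 0.643 and 0.431 CPM. Neither gene was tested. IL6R in the IM 1h mRNA libraries held 2, 5 and 0 counts against 5, 10 and 8 in CTRL, a mean of 0.113 against 0.415 CPM. The nearest libraries of these groups held 5 counts each, at 0.234 CPM in IM 1h and 0.276 CPM in CTRL. In mRNA IM 6h, mRNA IM 18h and nuclear IM 1h the IL6R libraries overlapped CTRL.

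**Figure D4:**
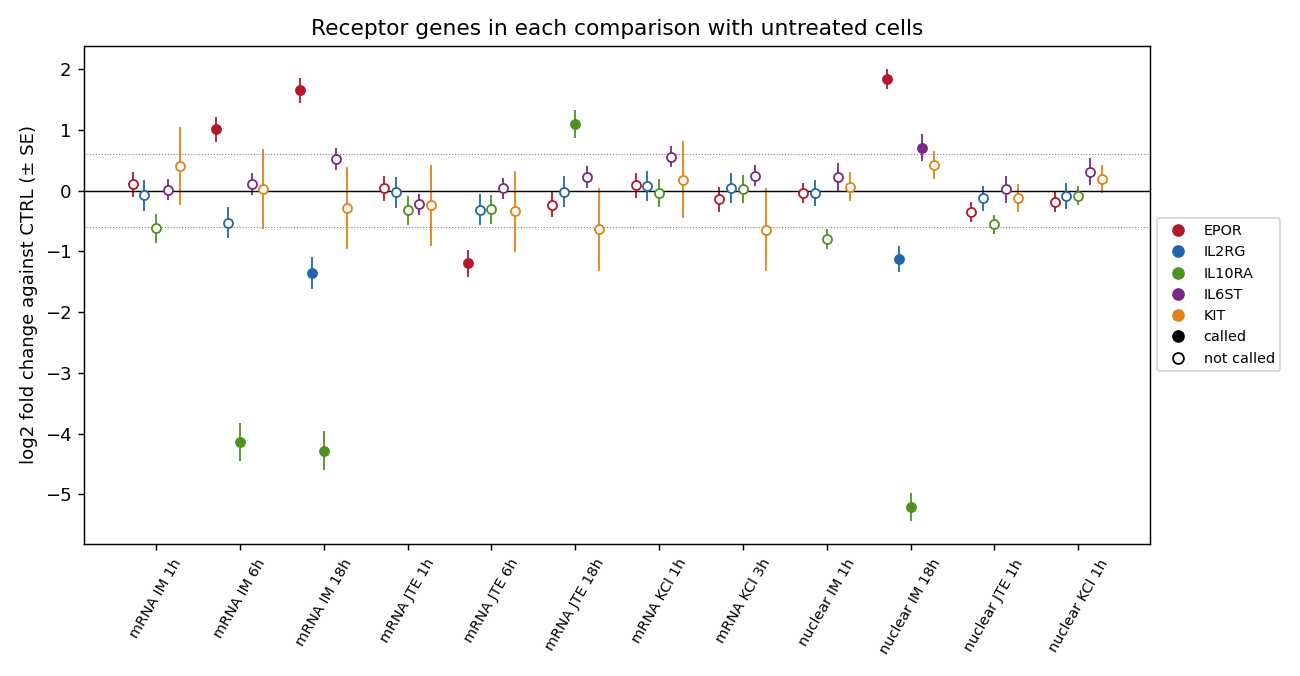
Log2 fold change against CTRL (± SE) of the 5 tested receptor genes in the 12 comparisons with CTRL, with filled points for called values and dotted lines at the fold threshold of 0.6. Filled points lie in IM 6h, IM 18h, JTE 6h, JTE 18h and nuclear IM 18h, and the lowest is IL10RA at -5.21.

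Over the 12 comparisons with CTRL, 11 values of the 5 tested genes were called. Of them, 9 belong to imatinib at 6 h or 18 h and 2 to JTE. They come from EPOR, IL10RA, IL2RG and IL6ST, most of which count more than once. In IM 6h mRNA 2 of the 5 genes were called, beside 9.94% of all genes. In JTE 6h and JTE 18h mRNA it was 1 each, beside 13.2% and 5.39%. In IM 18h, 3 of the 5 genes were called in mRNA and 4 in nuclear RNA, beside 30.5% and 32.6% of all genes. In JTE 1h, KCl 1h and KCl 3h mRNA edgeR called 0 of the 5 genes, where 0.851%, 5.45% and 11.9% of all genes were called. At an unadjusted p below 0.05 there were 0, 1 (IL6ST) and 0, and DESeq2 called 0 in each. In nuclear KCl 1h edgeR and DESeq2 called 0 of the 5, with 0 at an unadjusted p below 0.05, where 23.8% of genes were called. Between KCl 3h and KCl 1h the counts were the same, where 3.29% of genes were called. The median log2 fold change of the 5 genes was -0.29 in mRNA IM 18h, against 0.04 over all genes tested, and 0.42 in nuclear IM 18h, against 0.00. Both medians are the value of KIT, which was not called and was 0.54 in mRNA without CTRL replicate 3. They therefore do not show a shift of the set. EPOR and IL6ST were higher and IL2RG and IL10RA lower in both fractions.
Differences of response between nuclear RNA and mRNA were tested for IM 1h, IM 18h, JTE 1h and KCl 1h, where 0.0%, 0.0901%, 0.0605% and 0.668% of genes were called. Of the 5 receptor genes edgeR and DESeq2 called 0 in each, with 0 at an unadjusted p below 0.05, and the lowest edgeR adjusted p was 0.744. The levels in CTRL gave a nuclear to mRNA ratio of 1.71 for IL10RA, 1.34 for EPOR, 1.11 for IL2RG, 0.738 for IL6ST and 0.590 for KIT, between libraries made in different ways.

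The other genes of these pathways were taken from a list of 68 ligands, partner chains, related receptors, kinases, STATs and adaptors, of which 40 passed the filter for mRNA and 46 for nuclear RNA. In IM 18h mRNA 8 rose and 10 fell, against 17.2% higher and 13.2% lower over all genes, and the list median was -0.16. In nuclear IM 18h 10 rose and 12 fell, against 17.2% and 15.4%. In IM 6h 2 rose and 6 fell, against 5.82% and 4.12%.
Among partner chains, IL4R, which pairs with IL2RG in the IL-4 receptor, fell from 3.04 ± 1.13 CPM in CTRL to 0.864 ± 0.430 CPM in IM 6h and to 0.396 ± 0.0224 CPM in IM 18h (-2.93, SE 0.41, edgeR adjusted p = 5.71e-06). In nuclear RNA it fell from 6.38 ± 1.55 to 1.12 ± 0.230 CPM.
Among the STATs, 2 of 6 rose and 1 fell in IM 18h mRNA. STAT2, which acts in the interferon response, rose from 41.7 ± 4.65 to 129.5 ± 15.6 CPM (1.64, SE 0.14, edgeR adjusted p = 5.39e-09). Of the kinases, FES, a cytoplasmic tyrosine kinase of myeloid cells, rose from 1.32 ± 0.514 to 4.18 ± 1.14 CPM. Of the adaptors, SH2B3, which restrains JAK2, fell from 171.9 ± 81.4 to 69.1 ± 24.0 CPM in IM 6h.
Of the 18 listed ligands 9 were tested in nuclear RNA, and in IM 18h 3 of them rose and 3 fell. CSF2 and IL3 rose, from 0.433 ± 0.0999 to 2.02 ± 0.194 CPM and from 0.519 ± 0.267 to 2.40 ± 0.555 CPM. These are the ligands of receptors that use CSF2RB.
The following were chosen after their values were seen, because they act directly with the receptors. JAK2, the kinase of EPOR, went from 62.0 ± 9.71 to 135.9 ± 2.78 CPM in IM 18h mRNA (1.13, SE 0.15, edgeR adjusted p = 3.3e-06). STAT5A fell by 0.89 (SE 0.15, edgeR adjusted p = 4.83e-05), and IL10RB, the partner of IL10RA, had a value of 0.47 (SE 0.15, edgeR adjusted p = 0.0133), short of the fold threshold. EPO, the ligand of EPOR, held 3 counts over the CTRL mRNA libraries, KITLG held 1 and IL10 held 0, so none of these was tested there.

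**Figure D5:**
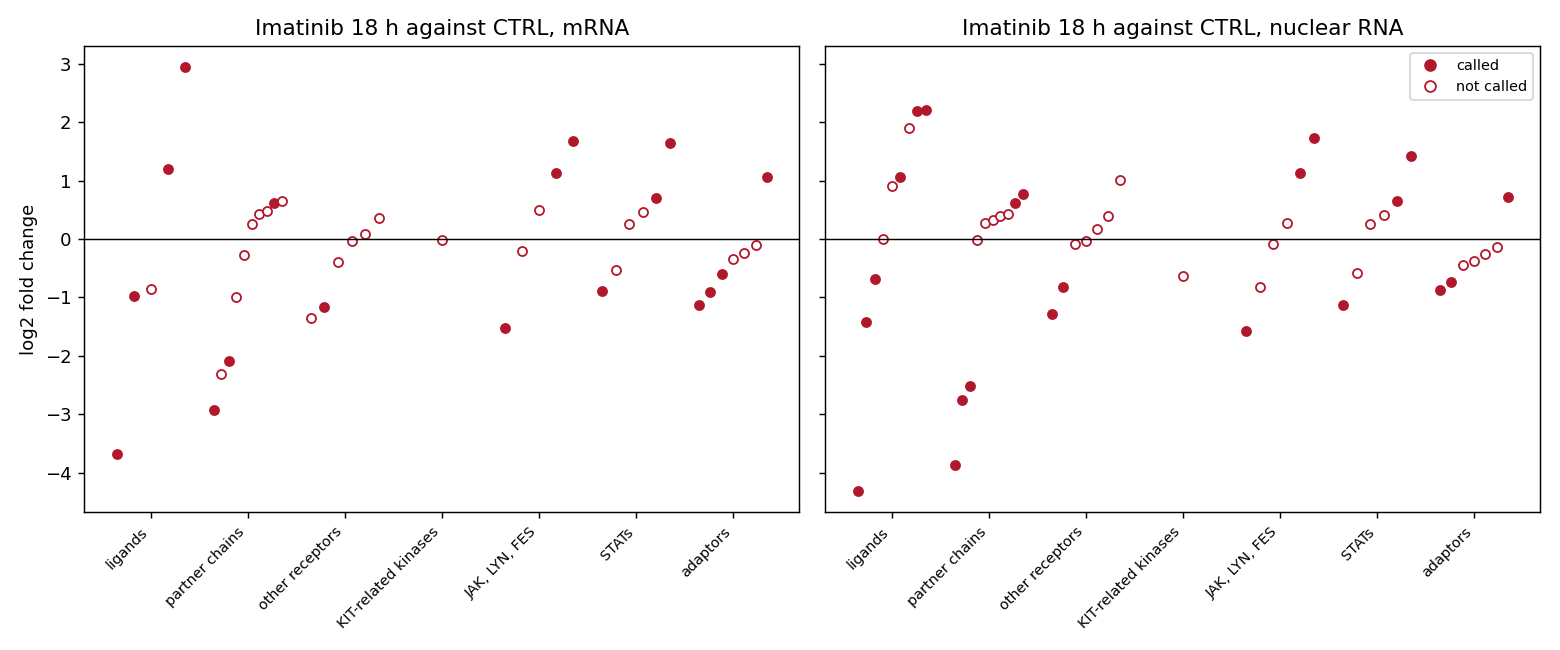
Log2 fold change at 18 h of imatinib of the tested genes of the list by role, with 1 point per gene, filled when called, mRNA on the left and nuclear RNA on the right. The mRNA panel holds 18 filled points and the nuclear panel 22, on both sides of 0.

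With JTE, 3 of the 40 tested list genes rose and 3 fell at 6 h, against 6.73% and 6.47% of all genes. FES rose from 1.32 ± 0.514 to 6.44 ± 3.13 CPM, and CNTF from 3.80 ± 1.63 to 9.13 ± 2.26 CPM. At 18 h PTPN6, a phosphatase that restrains receptor signalling, rose from 1.62 ± 0.272 to 3.33 ± 0.624 CPM, and STAT5A fell from 490.0 ± 44.6 to 271.9 ± 9.89 CPM. IL3RA was also called at JTE 6h, but it lies in the pseudoautosomal region and its counts are uncertain.
With KCl, 13 of 46 tested list genes rose and 0 fell in nuclear RNA at 1 h, among them 6 of 9 ligands and 2 of 10 partner chains, against 15.3% higher and 8.5% lower over all genes. IL4 had 0 counts in the 3 CTRL libraries and 26, 32 and 36 counts in KCl 1h, at least 11-fold higher against a floor of 3 counts per library. IL21R, which pairs with IL2RG, rose from 0.253 ± 0.179 to 3.13 ± 1.02 CPM.
In KCl mRNA 1 listed gene was called, CSF1R, which is related to KIT, and it rose from 0.129 ± 0.116 to 3.50 ± 1.59 CPM at 1 h and to 2.38 ± 0.456 CPM at 3 h.

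The genes whose 9 mRNA group means were most like those of each receptor were found among 8720 tested genes of at least 10 CPM, as a description with no test. For EPOR they included FGFR3 (r = 0.991) and KLHDC8B (r = 0.988). For IL10RA they were NUTM2A-AS1 (r = 0.983), ANKLE2 (r = 0.980) and ACTN4 (r = 0.979). For IL2RG they were TRPV2 (r = 0.993), NFKBIB (r = 0.992) and PSME3 (r = 0.992), and for IL6ST STRN3 (r = 0.974), ZEB2 (r = 0.912) and NABP1 (r = 0.907). KIT was closest to STYX (r = 0.913), NECAB1 (r = 0.911) and THAP5 (r = 0.910). Each r is over 9 group means that share their libraries.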

How the data were processed

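The authors trimmed and deduplicated read pairs with fastp, aligned them to hg38 with STAR, keeping unique alignments and introns of at most 10000 bases, and counted pairs over exons by gene with featureCounts. The deposited values are raw counts per gene, with the exon length of each gene in bases. No strand option is given for counting, so pairs antisense to a gene could be counted for it, and pairs on exons of more than 1 gene were dropped. The annotation release is not given in the sources used here. Of the 58243 gene IDs, 57532 are in GENCODE 44, and 0 of the 42 count columns were without a sample.

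Tests used the quasi-likelihood method of edgeR 4.0.16 (R 4.3.3) after filterByExpr and TMM normalisation. Each fraction had its own fit of all its libraries with a term for every group, over 18095 genes for mRNA and 21929 for nuclear RNA. Nuclear and mRNA changes were compared by an interaction over 12 libraries. p-values were adjusted over all genes tested by Benjamini-Hochberg. DESeq2, which the study's methods name, was run here in version 1.42.0 as an alternative, as were other scalings, filters, a replicate block and leaving out 1 library. The fits were also run on simulated counts, whose outcome is not given here. Every simulated gene had the same spread, no replicate structure was built in, and only genes with higher counts were changed. That run therefore does not cover genes with few counts or paired replicates. CPM values were divided by exon length in kilobases for RPKM. The 42 replicate pairs differed by more than counting noise (chi-square per gene 2.23 to 54.2), so each library counted as 1 replicate.

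Replicate numbers paired the nuclear libraries with CTRL, since the deviations of same-numbered libraries correlated at r = 0.235 to 0.891, but, as labelled, not the mRNA libraries with CTRL. The study's own list of read totals numbers mRNA CTRL 1 and 2 the other way round from the labels and count columns. With these 2 numbers exchanged the mRNA correlations with CTRL were 0.0553 to 0.877, and above 0.1 for every pair in 7 of 8 comparisons. The labelled numbers were kept, and a block with the exchanged numbers was an alternative chosen after the data were seen. The labels call the replicates biological. Each SE was taken from the edgeR fit, which includes the spread between replicates. The floor of 3 counts per library covers counting error only. The receptor genes, the pathway list and the marker lists were chosen with earlier results of these data known. Other pathway genes were named where called against CTRL, at most the 3 largest changes per comparison with a mean of at least 1 CPM in the higher group. Promoter windows are RefSeq entries, found for 6 of the 7 genes. Some genes that these rules name are not reported here. Protein sequences were not used here.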

Additional observations from a re-analysis of the deposited data

Results flagged for a closer look

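The following values are differences between treatment times, each from a direct edgeR test of the 2 times. In mRNA, EPOR was 0.90 higher in IM 6h than in IM 1h (log2, SE 0.21, adjusted p = 0.00459) and 0.65 higher in IM 18h than in IM 6h (SE 0.20, adjusted p = 0.0487). Of the 6 fits that left out 1 library, 5 called the first EPOR difference and only 1 called the second. IL10RA had a difference of -3.52 between IM 6h and IM 1h (SE 0.31, adjusted p = 3.83e-07). Between JTE 18h and JTE 6h, EPOR differed by 0.97 (SE 0.22, adjusted p = 0.00267) and IL10RA by 1.40 (SE 0.24, adjusted p = 0.000176). In nuclear RNA the differences between IM 18h and IM 1h were 1.89 for EPOR (SE 0.17, adjusted p = 4.03e-08), -1.09 for IL2RG (SE 0.22, adjusted p = 0.000646) and -4.41 for IL10RA (SE 0.24, adjusted p = 1.18e-10). All adjusted p values here are from edgeR's quasi-likelihood test.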

How the results depend on the processing

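The values were recomputed under 9 other settings, 1 of them (the block with mRNA CTRL 1 and 2 exchanged) chosen after the data were seen, and in 90 fits that left out 1 library. Of the 24 called values 0 changed sign, and EPOR and IL10RA in IM 6h, EPOR, IL2RG and IL10RA in IM 18h, EPOR in JTE 6h and IL10RA in JTE 18h were called in all 15 alternatives, EPOR in IM 18h between 1.55 and 1.78 and IL10RA between -4.48 and -4.17. In nuclear IM 1h 1 receptor gene, IL10RA, was called with DESeq2 (adjusted p = 0.00797), with no filter on low counts and with the replicate block (-0.80, edgeR adjusted p = 0.000115), against 0. In nuclear JTE 1h 1 was called with no fold threshold, and 0 to 1 when a library was left out. Leaving out a library gave 0 to 1 called in mRNA KCl 1h, 1 to 2 in IM 6h against IM 1h and 0 to 3 in IM 18h against IM 6h. The last count was 2 with DESeq2, with no low-count filter and with either replicate block (labelled or exchanged numbers), where IL2RG was added, and 0 with only the 2 groups or with thinned counts. Values of KIT turned without mRNA CTRL replicate 3, to 0.21 in JTE 18h and 0.20 in KCl 3h, and its nuclear minus mRNA value for IM 18h from 0.76 to -0.065. Over the left-out libraries these ran from -0.97 to 0.21, from -1.31 to 0.20 and from -0.065 to 1.10. The labelled mRNA numbers did not pair libraries with CTRL, and neither block changed another call. With the exchanged numbers the genes called rose from 3 to 5 in mRNA IM 1h, from 154 to 280 in JTE 1h and from 975 to 1575 in JTE 18h. Depth limits KIT, CSF2RB, IL6R and IL10RA under imatinib, which rest on few counts. The causes of these changes were not tested.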

Other observations

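ANKRD55 lies on the strand of IL6ST, 104685 bases upstream of it, and was chosen after its values were seen. Its 3 CTRL mRNA libraries held 89 counts in all (1.62 ± 0.721 CPM, SD, n = 3), the IM 6h libraries 3 counts and the IM 18h libraries 1 count. In nuclear RNA the CTRL libraries held 84 counts and the IM 18h libraries 7. IL6ST itself was not lower in these groups. By edgeR the value of ANKRD55 against CTRL was -4.90 in mRNA IM 6h (SE 0.69, adjusted p = 4.21e-05), -6.10 in mRNA IM 18h (SE 0.83, adjusted p = 3.42e-06) and -3.47 in nuclear IM 18h (SE 0.45, adjusted p = 3.07e-06), and such fitted values rest on 1 to 7 counts under imatinib.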
